A study of Mus musculus with 11 samples.

Results

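The regions described here carried H3K4me3, trimethylation of lysine 4 of histone H3, in mouse embryonic stem cells and in cap mesenchyme of the kidney, and had no H3K4me3 peak in ureteric epithelium. They were found from the 3 H3K4me3 peak lists as peaks of cap mesenchyme that overlapped a stem cell peak by at least 1 bp and no ureteric peak, on chromosomes 1 to 19 and X. The rule selected 5448 of 32920 cap mesenchyme peaks (16.5%). Of the other peaks, 18330 overlapped peaks of both other populations, 7168 overlapped neither and 1974 overlapped a ureteric peak only. The opposite selection, ureteric peaks that overlapped a stem cell peak and no cap mesenchyme peak, gave 929 of 23887 ureteric peaks. The regions were chosen by measured values, the H3K4me3 peak calls of the 3 lists, so the width and score of those peaks are described and not tested. The lists show which regions hold a peak in each population. They do not show that a ureteric cell once had a mark and lost it, so the regions are described as having no ureteric peak.

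Cap mesenchyme, the nephron progenitor population, was Cited1-RFP+ cells of Cited1nuc-TagRFP-T mice at E18.5, on a C57BL/6J background after a (C57BL/6 x DBA)F1 origin. Ureteric epithelium, which forms the collecting ducts, was Hoxb7-GFP+ cells of Hoxb7myr- Venus/+ mice at E15.5, on a C57BL/6J background after a (C57BL/6J x CBA/J)F2 origin. Both reporters use the control of a gene active in the wanted cells, so each population is what that reporter marks, and the 2 kidney populations differed in age as well as in type. The stem cells were the wild-type 129/Ola line E14, a single established line, at passage 15. Chromatin was left unfixed, cut with micrococcal nuclease and precipitated with the same H3K4me3 or H3K27me3 antibody in all 3 populations. RNA was taken from unsorted metanephric mesenchyme and ureteric bud, separated by hand dissection, of C57BL/6 wild-type embryos. These were E11.5 embryos, younger than those of either sorted population. With 1 sample in each of the 11 groups, nothing below could be checked against a replicate. The files give no read totals, so the depth of each library is unknown. Intervals are 95% exact binomial (Clopper-Pearson) intervals or order-statistic intervals of a median, and they cover counting error over regions or genes only.

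H3K4me3 is placed by Set1 and MLL complexes around the starts of genes that are transcribed or ready to be, and most strongly at starts rich in CG dinucleotides. H3K27me3 is placed by Polycomb repressive complex 2 and marks silenced developmental genes. In embryonic stem cells many promoters of developmental regulators carry both marks, a state called bivalent, and later cells often keep one of them. The mesenchyme and the ureteric bud of the kidney both come from intermediate mesoderm, and each holds silent the regulators of other organs.

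The promoter sequences of 5 genes whose start lies inside such a region show the range of base composition. Olig2 stands for regulators of other organs with H3K27me3 in all 3 populations, Sox2 for pluripotency genes, Lmx1b and Des for genes with more RNA in mesenchyme, and Hoxb8 for the widest region. Each is the RefSeq window (GRCm38.p6, the mm10 assembly) from 250 bases before to 50 after the gene start, 5′ to 3′ on the gene's strand, with CG dinucleotides in capitals.
Olig2, chr16:91225300-91225599, plus strand: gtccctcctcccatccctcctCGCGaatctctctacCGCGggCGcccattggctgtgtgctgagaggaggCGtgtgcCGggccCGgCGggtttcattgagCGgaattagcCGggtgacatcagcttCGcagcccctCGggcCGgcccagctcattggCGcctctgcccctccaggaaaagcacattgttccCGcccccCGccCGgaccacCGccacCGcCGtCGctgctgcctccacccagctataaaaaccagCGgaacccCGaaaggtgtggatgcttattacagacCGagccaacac
Sox2, chr3:34649745-34650044, plus strand: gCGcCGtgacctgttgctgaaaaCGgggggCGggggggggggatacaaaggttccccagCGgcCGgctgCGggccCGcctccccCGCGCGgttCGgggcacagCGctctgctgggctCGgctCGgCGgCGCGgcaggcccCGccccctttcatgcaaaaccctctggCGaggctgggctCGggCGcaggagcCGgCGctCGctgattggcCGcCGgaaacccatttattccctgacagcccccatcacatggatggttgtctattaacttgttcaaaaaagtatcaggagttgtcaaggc
Lmx1b, chr2:33641049-33641348, minus strand: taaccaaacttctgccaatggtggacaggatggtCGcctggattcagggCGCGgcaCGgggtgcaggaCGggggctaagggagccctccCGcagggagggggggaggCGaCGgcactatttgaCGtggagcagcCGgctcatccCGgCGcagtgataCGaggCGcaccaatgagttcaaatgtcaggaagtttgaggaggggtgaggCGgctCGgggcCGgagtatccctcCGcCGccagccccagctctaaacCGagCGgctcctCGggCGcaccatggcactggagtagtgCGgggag
Des, chr1:75360042-75360341, plus strand: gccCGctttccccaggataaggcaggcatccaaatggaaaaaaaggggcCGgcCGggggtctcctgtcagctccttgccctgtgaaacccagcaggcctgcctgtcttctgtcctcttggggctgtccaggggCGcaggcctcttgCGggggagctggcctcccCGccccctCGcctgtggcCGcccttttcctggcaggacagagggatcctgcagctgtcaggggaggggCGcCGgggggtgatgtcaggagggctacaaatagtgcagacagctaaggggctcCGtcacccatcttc
Hoxb8, chr11:96281655-96281954, plus strand: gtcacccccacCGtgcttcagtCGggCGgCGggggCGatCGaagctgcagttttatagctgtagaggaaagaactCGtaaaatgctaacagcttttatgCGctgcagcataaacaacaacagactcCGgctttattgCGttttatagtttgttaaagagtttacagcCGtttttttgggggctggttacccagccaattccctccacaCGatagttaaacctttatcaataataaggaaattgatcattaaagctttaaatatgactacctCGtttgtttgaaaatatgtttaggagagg
The windows of Sox2 and Olig2 held 27 and 25 CG dinucleotides, that of Lmx1b 24, that of Hoxb8 13 and that of Des 11. The Des and Sox2 windows had close GC contents, 65.3% and 66.3%, while the Hoxb8 window had 42.3%. The ratio of observed to expected CG dinucleotides was 0.344 in the Des window, 0.819 in the Sox2 window and 0.970 in the Hoxb8 window.

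Most of the regions were narrow and had low scores. The median width was 906 bp (quartiles 709 and 1167 bp), and the median of the authors' peak score was 129 (quartiles 77.0 and 239). Peaks shared by all 3 populations had a median width of 2038 bp and a median score of 1838, and peaks of cap mesenchyme alone had medians of 751 bp and 90.9. The score is the authors' own, and the sources used here do not say how it was computed. Of the regions, 45.6% lay in the lowest quartile of the cap mesenchyme list by score and 0.312% (17 regions) in the highest. Among peaks that overlapped a stem cell peak, the share without a ureteric peak was 80.8% in the lowest quartile, 51.2% in the next, 6.12% in the third and 0.207% in the highest. Peak strength therefore moved with membership, and the part of detection in the ureteric list was not tested. The lists also differed in length, with 66694 stem cell, 32920 cap mesenchyme and 23887 ureteric peaks. With each list cut to its 23887 highest scores, 1168 regions remained, and with only the upper 50% of the cap mesenchyme list by score, 486.

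**Figure D1:**
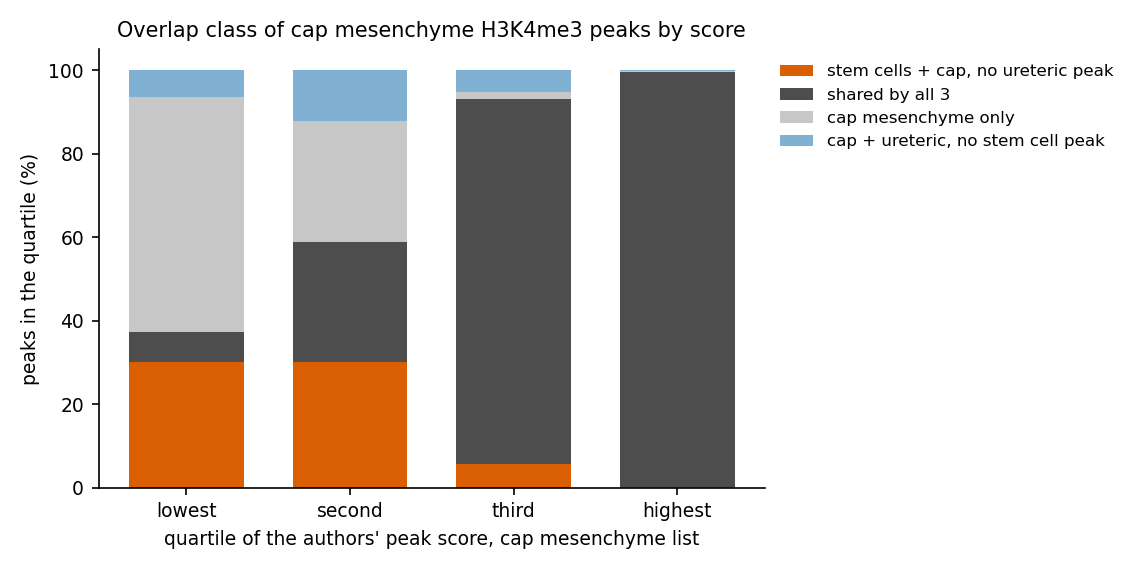
Share of cap mesenchyme H3K4me3 peaks (y axis, %) in each overlap class, by quartile of the authors' score (x axis). Peaks in stem cells and cap mesenchyme without a ureteric peak made up 30.2% and 30.1% of the 2 lower quartiles and 0.207% of the highest.

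Stem cell peaks usually extended past the region. Of the 5448 regions, 4126 (75.7%) lay wholly inside stem cell peaks, and the stem cell peak was the wider of the pair at 91.8%. The stem cell peaks over the regions had a median width of 1723.5 bp, against 1485 bp for all stem cell peaks. At 485 regions (8.90%) the same stem cell peak also touched a ureteric peak elsewhere. The nearest ureteric H3K4me3 peak lay at a median distance of 15377 bp, 398 regions (7.31%) had one within 1 kb, and 61.4% had none within 10 kb. At the edge of the rule, the 3 regions with the least stem cell overlap had 1, 1 and 2 bp of it, and the 3 nearest to a ureteric peak lay 1, 8 and 13 bp from it. The 3 peaks left out with the least ureteric overlap had 4, 9 and 9 bp of it.

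The regions lay at promoters less often than shared peaks and more often than peaks of cap mesenchyme alone. A promoter was a gene start plus and minus 1 kb. At promoters lay 1199 regions (22.0%, interval 20.9 to 23.1%), in gene bodies 2725 (50.02%) and between genes 1524 (28.0%). The promoter share was 72.6% for shared peaks, 6.77% for peaks of cap mesenchyme alone and 15.4% for the opposite selection. Within quartiles of score the gap to shared peaks was smaller: 13.2% against 13.1% in the lowest quartile, 24.5% against 22.4% in the next, and 53.7% against 68.4% in the third. In the 2 lower quartiles the intervals of the regions and of shared peaks overlapped.

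Promoter windows inside the regions were GC rich, with fewer CG dinucleotides than windows in shared peaks and slightly more than all windows. Over 615 windows of the RefSeq table that lay inside a region, the median GC content was 61.3% and the median number of CG dinucleotides was 15. Windows in shared peaks had 62.0% and 22, windows in peaks of cap mesenchyme alone had 50.7% and 5, and windows without cap mesenchyme H3K4me3 had 47.0% and 3. All windows of the table had 56.7% and 13. The median ratio of observed to expected CG dinucleotides was 0.557 inside the regions, 0.573 in all windows and 0.775 in shared peaks. Windows with ureteric H3K27me3 held a median of 20 CG dinucleotides, and those without H3K27me3 in any population held 11. The letters GGGCGG, on either strand, were in 62.6% of windows inside the regions, 68.2% of windows in shared peaks and 46.6% of all 21012 windows. The letters CCGGAAG were in 5.85%, 17.8% and 11.7%, and the letters TATAAA in 7.80%, 6.06% and 12.7%.

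H3K27me3, which the rule did not use, was present at more of the promoter regions than at shared promoter peaks in each population, and in gene bodies at fewer. It was called present where a peak covered at least 1 bp. Over all 5448 regions, cap mesenchyme had H3K27me3 at 16.9%, ureteric epithelium at 18.2% and stem cells at 15.8%, and the same shares of all cap mesenchyme H3K4me3 peaks were 9.3%, 11.6% and 12.3%. The H3K27me3 lists differed in length (105945, 136696 and 12731 peaks) and in lowest score (40, 30 and 40), so the shares are compared between sets of regions and not between populations. At 12731 peaks per list, the shares of the regions were 12.5%, 13.2% and 15.8%. At the 1199 promoter regions the shares were 35.5% (interval 32.8 to 38.3%), 37.7% (34.9 to 40.5%) and 36.2% (33.5 to 39.0%). At promoter peaks shared by all 3 populations they were 8.94%, 12.1% and 17.8%, and none of those intervals reached the ones of the regions. In gene bodies the shares of the regions were 10.7%, 12.04% and 10.4%, below the 12.9%, 15.3% and 16.0% of shared peaks there, with intervals that overlapped in cap mesenchyme only. Between genes they were 13.3%, 13.98% and 9.38%, against 12.4%, 15.3% and 10.6%, and all 3 pairs of intervals overlapped. Over all positions, shared peaks had 9.95%, 12.98% and 16.7%, so in stem cells the regions, at 15.8%, were not above them. Where ureteric H3K27me3 was present at a promoter region it covered a median of 100% of it, against 40.2% at shared promoter peaks, which are also wider.

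**Figure D2:**
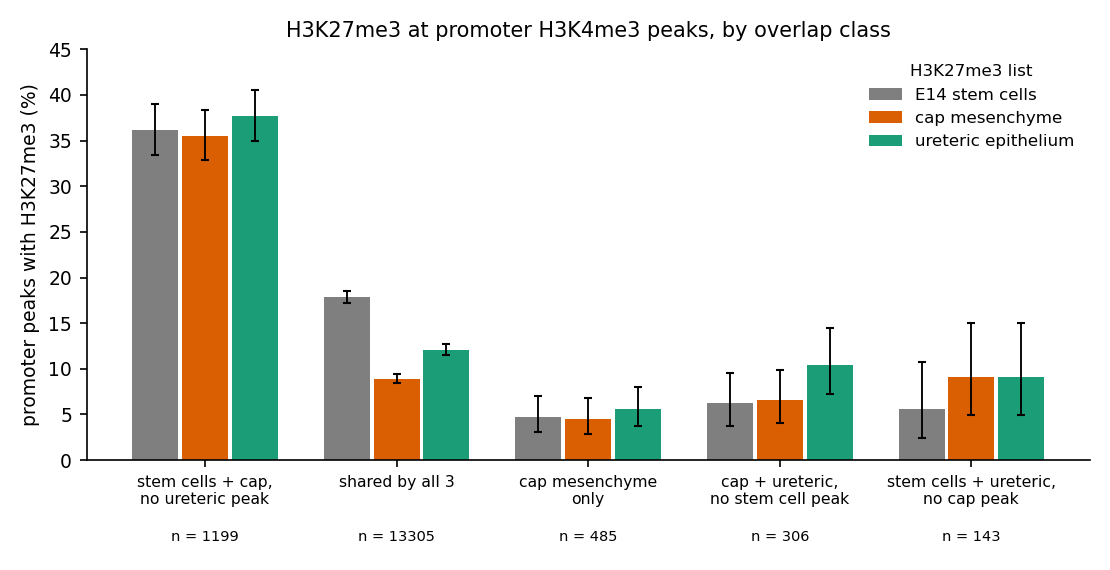
Share of promoter H3K4me3 peaks with H3K27me3 (y axis, %) in each overlap class, for the H3K27me3 lists of stem cells, cap mesenchyme and ureteric epithelium, with 95% exact binomial intervals as bars. Regions in stem cells and cap mesenchyme without a ureteric peak stood between 35.5% and 37.7% in all 3 lists, above every other class.

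Most promoter regions had H3K27me3 in no population or in all 3. Of the 1199 promoter regions, 616 had none in any population and 290 had it in all 3. It was in both kidney populations without stem cells at 77, in stem cells alone at 72, in ureteric epithelium alone at 47 and in cap mesenchyme alone at 25. Of the 434 promoter regions with H3K27me3 in stem cells, 290 (66.8%, interval 62.2 to 71.2%) also had it in both kidney populations and 72 (16.6%) in neither. For shared promoter peaks with stem cell H3K27me3 these shares were 28.5% and 44.9%. Of the kidney populations, ureteric epithelium alone had H3K27me3 at 85 promoter regions (7.09%), beside 5.73% of all cap mesenchyme promoter peaks. Over all positions it was 4.46% of the regions and 4.73% of all cap mesenchyme H3K4me3 peaks. The reverse held at 59 promoter regions (4.92%), beside 2.68% of all cap mesenchyme promoter peaks, and over all positions at 3.12% of the regions and 2.38% of all peaks. The ureteric list kept lower scores (from 30, against 40), so the 85 and the 59 are not compared with each other. At most promoter regions H3K27me3 was thus called alike in both kidney populations, most often as absent, although of the 2 only cap mesenchyme had an H3K4me3 peak. Of all cap mesenchyme promoter peaks 75.9% had no H3K27me3 in any population, and calls that differed were a smaller share there. Alike calls therefore do not set the regions apart. Cells of a sorted population can differ, so both marks at a place need not lie in the same cell.

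At promoters, the share with H3K27me3 was above that of shared peaks in each quartile of score and each population, with intervals that did not overlap in the 3 upper quartiles. In the third quartile ureteric H3K27me3 was at 60.3% of 252 promoter regions and 19.12% of 4926 shared promoter peaks, and cap mesenchyme H3K27me3 at 53.6% and 15.6%. In the second quartile the ureteric shares were 34.3% and 18.3% and the cap mesenchyme shares 34.4% and 17.0%. In the lowest quartile the intervals of the ureteric shares overlapped, at 25.7% (21.0 to 30.8%) of 327 regions and 15.6% (8.32 to 25.6%) of 77 shared peaks. There the cap mesenchyme intervals overlapped too, at 24.2% and 18.2%, while the stem cell shares were 21.7% (17.4 to 26.6%) and 7.79% (2.91 to 16.2%). In the highest quartile only 13 promoter regions remained, with ureteric H3K27me3 at 61.5% (31.6 to 86.1%) against 7.22%, and cap mesenchyme H3K27me3 at 23.1% (5.04 to 53.8%) against 4.10%.

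Promoters with ureteric H3K27me3 and none in cap mesenchyme included Lmx1b, which encodes a LIM homeobox factor of podocytes and limb, and Ptpro, which encodes a podocyte phosphatase. Ureteric H3K27me3 covered 98.3% of the 5173 bp Lmx1b region (chr2:33638124-33643296) and 94.7% of the 1541 bp Ptpro region (chr6:137251938-137253478), and cap mesenchyme H3K27me3 covered 0% of both. Lmx1b RNA was 8.99 FPKM in mesenchyme and 0.0730 in ureteric bud, while Ptpro was 0.0428 and listed at 0. Among the 12 such promoters with the largest coverage were Shisa8, Asic4, Selenov, Oprd1, the opioid receptor delta gene, Foxl1, a forkhead factor of gut mesenchyme, and Sstr5, a somatostatin receptor gene. Ureteric H3K27me3 covered 100% of each of these 6. Of them only Asic4, an acid-sensing channel family gene, reached 1 FPKM, with 3.30 in mesenchyme and a listed 0 in ureteric bud. Des, the desmin gene of muscle and mural cells, had ureteric H3K27me3 over 57.8% of its 2473 bp region and none in the other populations. The ureteric H3K27me3 scores at Des and Sstr5 were 37.05 and 35.03. Peaks with such scores were not kept in the cap mesenchyme list, whose lowest score was 40, so its lack of a peak there is uncertain.

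The 12 promoters named for the largest cap mesenchyme H3K27me3 coverage were those of Tlx2, Neurod2, Foxf2, Mnx1, En1, Nkx6-2, Nkx3-2, Dmrt1, Foxd4, Gdf7, Hand2 and Gsc2. All 12 were covered in full in cap mesenchyme. Gdf7 encodes a secreted BMP family ligand, and the other genes encode transcription factors. Dmrt1, a testis regulator, was the only gene of the 12 without ureteric H3K27me3. Hand2, a heart and limb factor, had 1.83 FPKM in mesenchyme and a listed 0 in ureteric bud, and the rest stayed below 1 FPKM in both libraries. Olig1 and Twist2 also had cap mesenchyme H3K27me3 (94.3% and 42.0% of the region) and none in ureteric epithelium.

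The 17 regions in the highest quartile of score had 13 at promoters. Among them, Ntsr1, a neurotensin receptor gene, and Ajap1, a junction-associated protein gene, had regions of 5166 bp and 4732 bp with scores of 3100. Ureteric H3K27me3 covered 53.3% and 95.8% of them, and cap mesenchyme H3K27me3 covered 0%. Espn, Rufy3 and Mfap4 had no H3K27me3 in any population, and the Rufy3 region lay 0.348 kb from a ureteric peak. Nptx1, a neuronal pentraxin gene, had a 4015 bp region with H3K27me3 over 56.1% in cap mesenchyme and 100% in each of the other populations. Of 9855 cap mesenchyme peaks of 2 kb or more, 2.05% were in the set, and of 566 of 5 kb or more, 1.06%.

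The widest region covered the centre of the HoxB cluster, whose genes give cells their position along the body axis. It spanned 45460 bp (chr11:96275979-96321438) at a score of 3100 and held starts of Hoxb3 to Hoxb8. The start of Hoxb3 was inferred from the end of its gene model, and no stem cell H3K4me3 peak lay at it. Beside it lay regions of 5381 bp at Hoxb9, 7677 bp and 4839 bp. No ureteric H3K4me3 peak lay in the 71.2 kb that held these 4 regions (chr11:96267004-96338177), and ureteric peaks stood on both sides of it, with Hoxb2 and Hoxb1 at one side. Cap mesenchyme H3K4me3 covered 91.2% of that stretch and stem cell H3K4me3 47.3%. Stem cell H3K27me3 covered 97.9%, and neither kidney population had any H3K27me3 in it. Hoxb13, apart from the rest of the cluster, had a 935 bp region with H3K27me3 in all 3 populations.

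**Figure D3:**
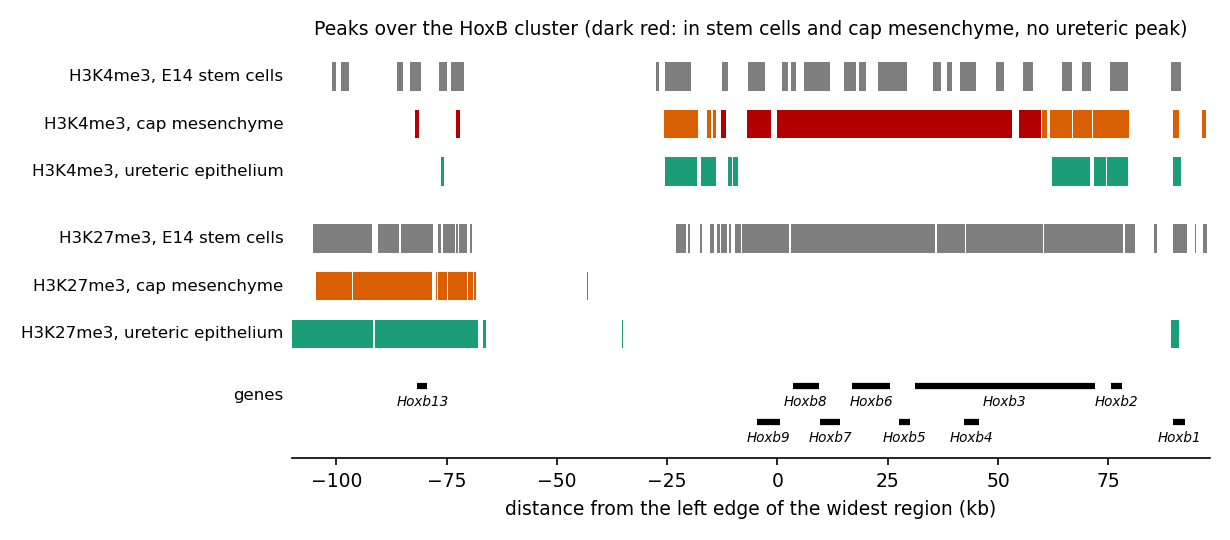
Peaks of both marks in the 3 populations over the HoxB cluster, with genes below; the x axis is distance from the left edge of the widest region in kb. The stretch of 71.2 kb with 4 regions (dark red) has no ureteric peak of either mark, and ureteric H3K4me3 peaks lie on both sides.

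RNA of these genes was present in both tissues. Hoxb7, whose control drives the ureteric reporter, had 9.95 FPKM (fragments per kilobase of transcript, scaled to the library) in the metanephric mesenchyme library and 75.8 in that of the ureteric bud. Hoxb8 had 7.96 and 69.2 FPKM, Hoxb6 32.7 and 62.0, and Hoxb4 16.7 and 29.1. Hoxb9 had 11.6 and 16.2 FPKM, Hoxb5 7.70 and 13.1, and Hoxb3 18.8 and 27.3. All 7 genes thus had RNA in the ureteric library while no ureteric H3K4me3 peak lay at the starts used. For Hoxb3 that start was inferred, and a ureteric H3K4me3 peak of 8702 bp with a score of 1858 lay inside the gene. Hoxb3 is therefore not counted as a gene without ureteric H3K4me3. With both libraries set to the same median, the log2 difference (mesenchyme minus ureteric bud) was -2.26 for Hoxb7 and -2.42 for Hoxb8, between -0.35 and -0.19 for Hoxb6, Hoxb4 and Hoxb5, and 0.02 and 0.06 for Hoxb3 and Hoxb9, which so changed sign from -0.52 and -0.45. Hoxb4 lies inside the gene model of Hoxb3, and Hoxb5os overlaps Hoxb6 and Hoxb5, so reads may be split between them. What accounts for the gap between mark and RNA was not tested, and the 2 measurements come from E15.5 and E11.5.

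Ureteric RNA without a ureteric H3K4me3 peak was rare. Of 4973 protein-coding genes at 10 FPKM or more in ureteric bud, 98.1% had ureteric H3K4me3 at a start and 99.5% at a start or in the gene. A region of the set lay at a start of 41 of the 4973 genes, and 14 of those had no ureteric peak at a start or in the gene. They were Hoxb4 to Hoxb9, Cdkn1c, Peg10, Krt7, Hmga1b, Prmt3, Epop, Bclaf3 and Tmem54, named here after their values were seen. Cdkn1c, a growth-restraining cell cycle inhibitor, had 173 FPKM in mesenchyme and 79.5 in ureteric bud, and its 3172 bp region (chr7:143458662-143461833) lay 19.9 kb from a ureteric peak. Peg10, like Cdkn1c an imprinted gene, had 26.0 and 29.3 FPKM and a region of 3127 bp. Krt7, a keratin of simple epithelia, was listed at 0 in mesenchyme and had 24.9 FPKM in ureteric bud, with a region of 1312 bp and a score of 155. Hmga1b is close in sequence to another gene, so its 7.79 and 19.8 FPKM are uncertain.

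Over all genes, 1286 had a region at a start, 864 of them protein-coding. That is 3.99% of 21631 protein-coding genes, and the share of long noncoding genes was 3.32% (422 of 12697). Of the 864 genes, 95 had ureteric H3K4me3 at another start, 156 in the gene but at no start, and 613 (70.9%) in neither place.

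Regulators of other organs made up the largest group among the gene lists examined. Of 42 transcription factors of other lineages, 21 had a region at a start, beside 3.99% of all protein-coding genes. At 19 of the 21 H3K27me3 was present in all 3 populations, and only Hand2 reached 1 FPKM in mesenchyme and only En2 in ureteric bud. The 21 include Pax3 and Pax7, factors of neural crest and muscle, Nkx2-5, Hand2 and Tbx20 of the heart, Neurog1, Neurog2, Neurog3, Olig1 and Olig2 of the nervous system, Myod1 of skeletal muscle, Nkx6-1 and Foxa2 of foregut organs, and Dlx1, Dlx5 and Dlx6 of forebrain and limb. The Neurog2 region was 2984 bp wide with a score of 1524, and H3K27me3 covered 39.3% of it in stem cells, 79.5% in cap mesenchyme and 100% in ureteric epithelium. The Pax7 region was 1420 bp wide with 97.3%, 97.2% and 100%. Six6, an eye factor, had a region of 451 bp with a score of 56.5, near the lowest score kept. The Foxa2 region was 676 bp wide with a score of 56.0. It lay 0.037 kb from a ureteric H3K4me3 peak, and Foxa2 had ureteric H3K4me3 at a start. En2, a midbrain factor, was listed at 0 FPKM in mesenchyme and had 5.29 in ureteric bud. In this list, stem cells had H3K4me3 at a start of 39 genes, cap mesenchyme at 32 and ureteric epithelium at 10.

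Of 28 pluripotency genes, 8 had a region at a start. They were Sox2, Tdgf1, Lin28a, Fgf4, Utf1, Tdh, Prdm14 and Lefty2. Cap mesenchyme had H3K27me3 at the start of 7 of the 8, ureteric epithelium of 7 and stem cells of 1. For the 21 regulators of other organs these counts were 21, 20 and 20. Sox2, a core pluripotency factor, had a 1962 bp region (chr3:34649184-34651145) whose H3K27me3 coverage was 99.2% in cap mesenchyme and 100% in ureteric epithelium, with none in stem cells. Fgf4 and Utf1 were covered in full in both kidney populations. Tdh, which encodes threonine dehydrogenase, had H3K27me3 in ureteric epithelium over 96.7% and none in cap mesenchyme. Its ureteric H3K27me3 score was 39.2, and the cap mesenchyme list held no peak below 40, so the 2 calls are not alike. Lin28a, an RNA-binding protein gene, had 1.62 FPKM in mesenchyme and 2.24 in ureteric bud, and the other 7 genes stayed below 1 FPKM.

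**Figure D4:**
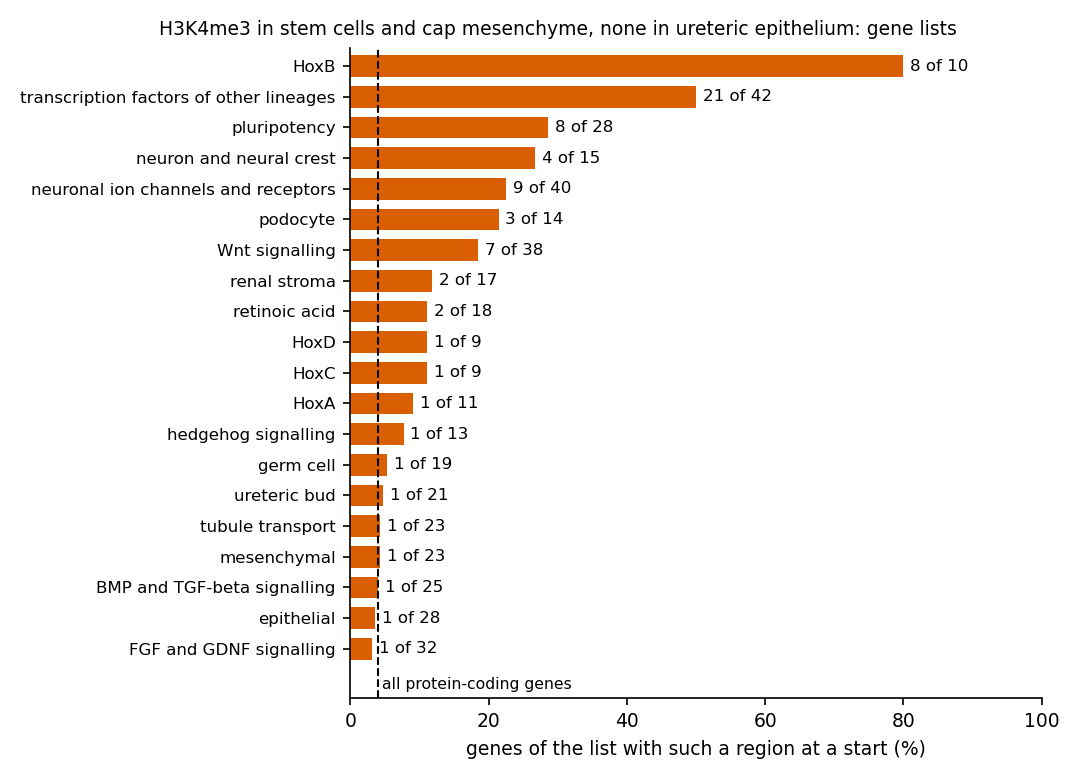
Share of each gene list (x axis, %) with a region at a start, for lists with at least 1 such gene; the dashed line is the 3.99% of all protein-coding genes. HoxB (8 of 10) and transcription factors of other lineages (21 of 42) have the largest shares. Hoxb3 to Hoxb8 share the same region, so the HoxB genes are not separate regions.

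Neuronal, podocyte and Wnt pathway lists followed. Of the other signalling lists, BMP and TGF-beta had a region at 1 of 25 genes (4%) and FGF and GDNF at 1 of 32 (3.1%). Hedgehog had one at 1 of 13 (7.7%) and retinoic acid at 2 of 18 (11.1%). Of 38 Wnt pathway genes, 7 had a region, the ligands Wnt1, Wnt2b, Wnt3, Wnt3a, Wnt10a and Wnt10b and the receptor Fzd9, and none of them reached 1 FPKM in either library. Of 40 neuronal channel and receptor genes, 9 had one, among them the glutamate receptor genes Grin1, Grik3 and Grm5 and the sodium channel gene Scn8a, which had 0.421 FPKM in mesenchyme and 5.73 in ureteric bud. Of 15 neuron and neural crest genes, 4 had one (Tubb3, Stmn2, Elavl3 and Phox2a), and all 4 had H3K27me3 in both kidney populations. Of 14 podocyte genes, 3 had one, Lmx1b and Ptpro among them, and all 3 had H3K27me3 in ureteric epithelium. HoxA, HoxC and HoxD had 1 region gene each, Hoxa13, Hoxc13 and Hoxd13, all with H3K27me3 in all 3 populations. The Hoxa13 region was 488 bp wide with a score of 53.3, near the lowest score kept. It lay 0.083 kb from a ureteric H3K4me3 peak, and Hoxa13 had ureteric H3K4me3 at a start. None of the 25 nephron progenitor genes had a region at a start, nor had any of the early nephron, endothelial, blood, Notch, axon guidance, Polycomb and Trithorax, cell cycle or housekeeping lists. In lists this short, the 3.99% share of all protein-coding genes would also give few or none, so the zeros set no list apart. The zeros also depend in part on the peak threshold. At a score of at least 100 in all H3K4me3 lists, 2 nephron progenitor, 1 early nephron and 1 axon guidance gene had one. At the nephron progenitor genes cap mesenchyme had H3K4me3 at a start of 25 of 25 and ureteric epithelium of 24 of 25. Meox1 had stem cell and cap mesenchyme H3K4me3 at a start and no ureteric H3K4me3 there, but no region by the rule. The share of a list with a region depends on how many of its genes carry H3K4me3 at all, so these shares are a description. With the H3K4me3 lists at equal length, the counts were 11 for transcription factors of other lineages, 5 for pluripotency, 3 for Wnt, 2 for neuronal channels and 1 for podocyte genes, and 0 for HoxA, HoxC and HoxD. Under the same setting HoxB had 6 and neuron and neural crest 4. The HoxB counts are of genes, and Hoxb3 to Hoxb8 share the same region.

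By symbol, 16 of 94 Kcn potassium channel genes had a region (17.0%), 11 of 46 Fox forkhead genes (23.9%), 7 of 14 Nkx genes (50%), 6 of 19 Sox genes (31.6%) and 12 of 69 Pcdh protocadherin genes (17.4%). Only 3 of 400 Zfp zinc finger genes (0.75%), 2 of 1110 Olfr odorant receptor genes (0.18%) and none of 56 Rpl and 45 Rps ribosomal protein genes had one. The share of all protein-coding genes was 3.99%, and Slc, Tmem and Cyp genes (5.66%, 5.04% and 3.77%) lay near it. Small families had wide intervals, 23.0 to 77.0% for Nkx and 12.6 to 56.6% for Sox. Inside genes or at their starts, 2777 protein-coding genes held at least 1 region and 170 held 3 or more. The gene models with the most regions were Gm37013, Gm38666 and Gm38667, long overlapping models across the protocadherin cluster on chromosome 18, each with the same count of 18 of 30 cap mesenchyme peaks. Next came Gse1, a corepressor component gene, with 14 of 20, and protocadherin genes such as Pcdhga1 with 13 of 17. Protocadherin genes of a cluster overlap, so they share regions and perhaps reads.

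Few genes with a region were transcribed in the E11.5 tissues. RNA values exist for 848 protein-coding region genes, and 174 of them (20.5%) were at 1 FPKM or more in either library, against 53.5% of all protein-coding genes and 81.4% of those with a shared peak and no region at a start. Of genes with H3K27me3 in both kidney populations 30 of 303 (9.90%) did, and of those with it in neither 124 of 433 (28.6%). FPKM are relative to all fragments mapped, and in bulk tissue fewer cells of a type and less RNA per cell cannot be told apart.

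The difference between tissues went in both directions. Over 187 region genes at 1 FPKM or more in either library, noncoding genes included, the median difference in log2(FPKM + 1), mesenchyme minus ureteric bud, was -0.24 (interval -0.51 to 0.06), and over all 11613 such genes it was -0.46. A gene was counted as higher at a 4-fold difference on that scale where the higher library had 2 FPKM or more. In mesenchyme 15 region genes (8.02%) were higher, beside 1.93% of all genes, and in ureteric bud 14 (7.49%), beside 4.18%. With the libraries at the same median the counts were 17 and 7 for region genes and 270 and 309 for all genes (224 and 485 at the deposited scale), and the medians of region genes and of all genes were 0.37 and 0.02. Of the 14 protein-coding genes at 1 FPKM whose start had H3K27me3 in ureteric epithelium alone of the kidney populations, 3 were higher in mesenchyme and none in ureteric bud. With H3K27me3 in both kidney populations 4 and 2 of 30 were, in cap mesenchyme alone 0 and 1 of 6, and in neither 6 and 10 of 124. Those are few genes, and no test can be made with 1 library per tissue.

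**Figure D5:**
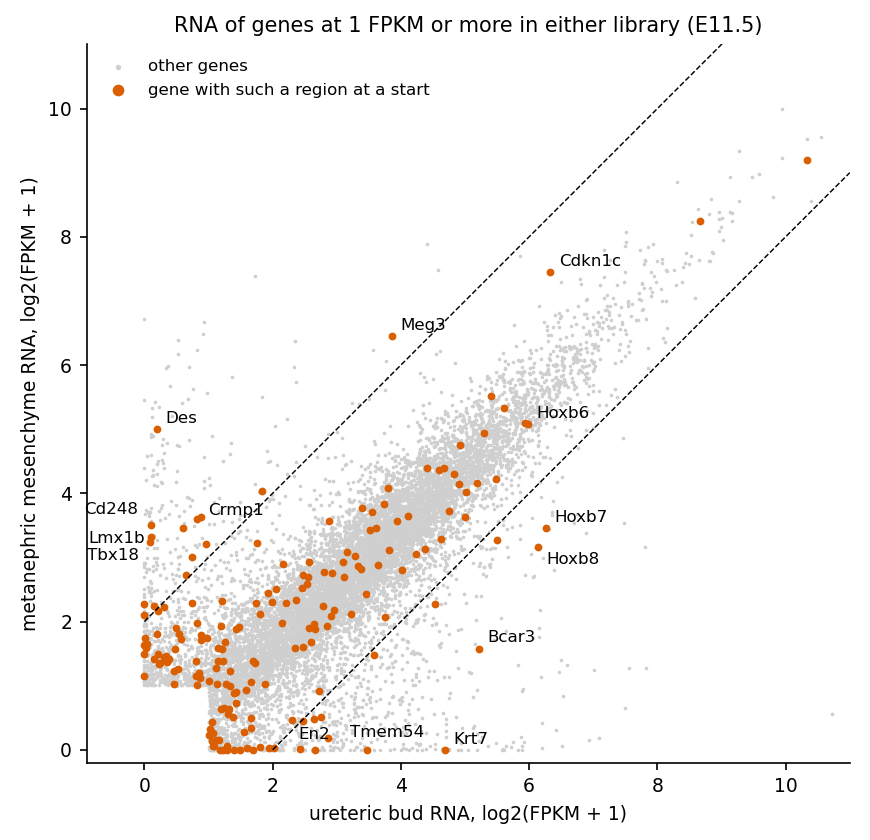
RNA of 11613 genes at 1 FPKM or more in either E11.5 library, as log2(FPKM + 1) in ureteric bud (x axis) and metanephric mesenchyme (y axis); orange points are genes with a region at a start and dashed lines mark a 4-fold difference. Des, Cd248, Lmx1b and Tbx18 lie far toward mesenchyme, Krt7, Bcar3 and Tmem54 far toward ureteric bud.

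Of the genes higher in mesenchyme, Des had 31.1 FPKM in mesenchyme and 0.142 in ureteric bud, the largest difference of the set (4.81). Cd248, a pericyte and fibroblast surface protein gene, had 10.4 and 0.0773 FPKM. Tbx18, a T-box factor of ureteric and stromal mesenchyme, had 8.50 and 0.0588 FPKM, with H3K27me3 at its region in all 3 populations. Dlk1, a Notch ligand homologue, had 9.99 and 0.514 FPKM, and Meg3, a noncoding RNA of the same imprinted locus, had 86.8 and 13.6. Crmp1, Lifr, the receptor gene for leukaemia inhibitory factor, Pcolce, a collagen processing protein gene, Myl9, a smooth muscle light chain gene, and Mfap4 also passed 4-fold, as did Asic4 and Stmn2. Of these, Crmp1 and Lifr had ureteric H3K4me3 at another start.

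Of the genes higher in ureteric bud, Krt7 had the largest difference (-4.69). Bcar3, a signalling adaptor gene, had 1.98 and 36.1 FPKM, and ureteric H3K4me3 lay at another of its starts. Tmem54 was listed at 0 and had 10.1 FPKM, and Hpn, a membrane serine protease gene, had 0.142 and 6.31. Prmt8, Ttll1, Scn8a, Agrn and Dpp6 passed 4-fold at the deposited scale and not with the libraries at the same median. Of these, Agrn, Dpp6 and Scn8a had ureteric H3K4me3 at another start. Genes abundant in both tissues included Mdk, a growth factor gene, with 587 and 1283 FPKM and Gnas, the stimulatory G protein gene, with 304 and 402.6.

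Labels and other cell types were checked with marker genes. Six2 had 55.5 FPKM in mesenchyme and 1.58 in ureteric bud, and Ret 0.341 and 72.8, but Cited1 was higher in ureteric bud (2.78 and 8.34). Those RNA values belong to the dissected tissues, not to the sorted populations. H3K4me3 at a start did not separate the sorted kidney populations at Six2, Cited1, Osr1, Ret, Wnt11 and Gata3, which had it in both. The cap mesenchyme marker Meox1 and the ureteric marker Hoxb7 had it in cap mesenchyme alone of the kidney populations. H3K27me3 was in ureteric epithelium alone of these at Six2 and Osr1, and was called alike at the other markers named. Among pluripotency genes, Pou5f1, Nanog and Zfp42 had H3K4me3 in stem cells only, while Esrrb had it in all 3 populations. Of 17 renal stroma genes, 15 reached 1 FPKM in mesenchyme and 5 in ureteric bud, and they summed to 783 and 59.1 FPKM, with none listed at 0. Of 15 endothelial genes, 13 and 0 did, summing to 48.4 and 5.56 FPKM, and their starts carried H3K4me3 at 8 in cap mesenchyme and 15 in ureteric epithelium. Of 15 neuron and neural crest genes, 7 and 2 did, summing to 22.4 and 10.2 FPKM, with Foxd3, Th, Dbh and Snap25 among those listed at 0 in ureteric bud. Early nephron genes (18) summed to 53.9 and 390.7 FPKM and tubule transport genes (23) to 2.92 and 13.1, both higher in ureteric bud. Podocyte genes (14) summed to 113.5 and 117.9 FPKM. Some list genes are themselves region genes higher in mesenchyme: Tbx18 and Dlk1 of renal stroma, Stmn2 of neurons and Lmx1b of podocytes. The part of such cells in the RNA differences above was not tested.

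RNA without a reference gene was looked for at regions between genes, and not at those in gene bodies. Of the 1524 regions between genes, 17 (1.12%, interval 0.651 to 1.78%) overlapped a transcript without a reference gene (at least 500 bp long and 1 FPKM in either library), against 2.33% of shared peaks between genes and 0.573% of those of cap mesenchyme alone. Regions between genes had a median width of 825 bp and a median score of 111, and those at promoters 1090 bp and 221. By chromosome the share of cap mesenchyme peaks in the set ran from 12.5% on chromosome 14 to 20.3% on chromosome 4. Among noncoding genes with a region, 13 reached 1 FPKM, led by Meg3, and C130021I20Rik, which lies at Lmx1b, had 1.22 FPKM in mesenchyme and a listed 0 in ureteric bud.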

How the data were processed

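H3K4me3 and H3K27me3 were measured by native ChIP-seq in cap mesenchyme, ureteric epithelium and E14 stem cells, and RNA in 2 dissected tissues, with 1 sample per group. Peaks were deposited by the authors as lists with 1 score per peak, and the submitters' processing notes name Bowtie2, MACS and mm10 without saying what the score is. FPKM values per transcript were deposited by the authors, and the same notes name TopHat, Cufflinks and Cuffdiff. Input libraries were not analysed here.

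Overlaps needed at least 1 bp. Gene starts came from the RefSeq promoter table (GRCm38.p6) for 26794 genes, from the end of the gene model, with strand taken from the RNA table, for 6562, and from both ends for 972. FPKM were summed per gene over 122213 of 138486 transcripts, paired by RefSeq accession or, from 200 bp, by the only gene of their locus. Differences used log2(FPKM + 1) over genes at 1 FPKM or more in either library. No p-value was computed. Shares carry exact Clopper-Pearson 95% intervals, for counting error only.

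The regions and the 29 gene lists (597 genes) were chosen with earlier results of these data known. Genes named are the leading 12 by score, width, RNA difference in each direction, or H3K27me3 coverage in 1 kidney population, the 10 with most regions, and genes of the lists with a region. Others were named after their values were seen. Scripts ran in Python 3.11.15 with pandas 2.3.3, numpy 2.4.6, scipy 1.17.1 and matplotlib 3.10.9 and were tested on simulated data. Some genes are not reported here.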

Additional observations from a re-analysis of the deposited data

How the results depend on the processing

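At a score of at least 100 in all H3K4me3 lists the rule gave 4462 regions, of which 2850 (52.3% of the 5448) were among those reported. Of the 4462, 32.1% lay at promoters, cap mesenchyme, ureteric and stem cell H3K27me3 were at 22.4%, 24.4% and 22.9%, and 23 genes were higher in mesenchyme. At equal H3K4me3 list length (1168 regions) these were 38.1%, 29.7%, 29.97% and 29.3%, the median RNA difference was -0.53, and 7 genes were higher in mesenchyme and 9 in ureteric bud. The upper 50% of the cap mesenchyme list (486 regions) gave 54.5%, 40.3%, 45.7%, 46.7%, 9 and 6 genes. The upper 50% of the stem cell list, chosen after seeing the data (3194 regions), gave 26.4%, 21.8%, 22.6% and 19.8%, and 8 genes higher in mesenchyme. A promoter of 2 kb each side gave 27.5%. Requiring H3K27me3 over at least 50% of a region gave 10.7%, 15.4% and 10.6%, and equal H3K27me3 list length gave 12.5% and 13.2% in cap mesenchyme and ureteric epithelium. A pseudocount of 0.1 gave 26 genes higher in mesenchyme and 23 in ureteric bud. With both libraries at the same median, the median difference was 0.37 and 7 genes were higher in ureteric bud, and with no filter on low values the median was 0.02. The causes of these shifts were not tested. Leaving out a replicate was not possible with 1 sample per group. No paired analysis was possible because each group held 1 sample and no test was made.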
